A study of Rattus norvegicus with 2 samples.

Results

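The 10 genes described here encode transcription factors that pattern the embryonic hypothalamus: *Rax*, *Lhx2*, *Six3*, *Six6*, *Nkx2-1*, *Otp*, *Isl1*, *Tbx3*, *Nr5a1* and *Rorb*. They were taken by symbol from the 32883 genes that both libraries list, and all 10 were found. Their levels were read in neurons, tanycytes, ependymal cells and astrocytes, which were gated by marker genes that do not include any of the 10. Hypothalamic tissue that held the anteroventral periventricular nucleus (AVPV) and the arcuate nucleus (ARC) came from female Sprague Dawley rats at PND 29, and 3′ RNA of single cells was sequenced after droplet capture. SC300 rats had received a silicone capsule with 300 µg estradiol benzoate (EB) at PND 0.5, and Control rats are called intact in the labels, while the methods describe a capsule with oil. Each group is 1 library of tissue pooled from 3 rats, so the variation between rats was not measured and no test between the groups was possible. The rats carried no transgene or deletion.

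Homeodomain factors such as Rax, Six3, Six6, Nkx2-1 and Lhx2 set up the ventral forebrain and the floor of the third ventricle, and several of them stay on in tanycytes, the radial cells that line the ventricle floor and reach into the median eminence. Otp, Isl1, Tbx3 and Nr5a1 act later, when neurons of single nuclei take on their peptide identity: Otp in the paraventricular and arcuate lineages, Isl1 and Tbx3 in arcuate neurons that make *Pomc* or *Agrp*, and Nr5a1 in the ventromedial nucleus. Rorb is itself a retinoic acid receptor-related orphan nuclear receptor, of a family that takes part in the circadian clock.

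Barcodes with at least 200 detected genes were kept, which left 4296 cells in Control and 4379 cells in SC300, with 51382276 and 56390355 unique molecular identifiers (UMIs, tags that count each captured RNA molecule once). The libraries shared 7 barcodes (0.163% and 0.160% of cells). The gate gave 487 and 490 neurons, 227 and 137 tanycytes, 68 and 62 ependymal cells, and 1337 and 1473 astrocytes in Control and SC300. Median UMIs per cell in Control and SC300 were 22715 and 20303 in neurons, 10634 and 11266 in tanycytes, 26556 and 14659 in ependymal cells, and 6298 and 6536 in astrocytes. Levels are given as UMIs of a gene per 1000000 UMIs of the class (CPM) with exact 95% Poisson intervals, shares of cells with exact Clopper-Pearson intervals, and differences as the log2 ratio of CPM, SC300 over Control, with an exact conditional binomial interval. All intervals cover counting error only. Because 3′ tags were counted, levels are compared within a gene and not between genes.

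The levels of the gate's own markers were compared between the classes. In neurons 9 of 10 markers stood at 10 CPM or more and at least 2-fold above every other class in both libraries, in ependymal cells 7 of 9, and in astrocytes 10 of 10 in Control and 9 of 10 in SC300. In tanycytes only 3 of 9 did so in Control and 5 of 9 in SC300. Among those that did in both were *Crym*, at 2850 and 3905 CPM, and *Frzb*, at 272 and 198 CPM. All of these markers were used in the gate, so their levels are no independent check of any class. *Crym* was used again to separate tanycytes from other lining cells, as the ciliary markers were for ependymal cells. *Gpr50* and *Col23a1*, also tanycyte markers, were nearly absent, with 2 and 1 UMIs in Control and 1 and 0 UMIs in SC300.

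The letters before the transcription start are shown for *Rorb*, *Six3* and *Nkx2-1*, which differed between the libraries in tanycytes, and for *Six6*, which was detected in many of the *Six3* cells. They come from the RefSeq promoter table of build GRCr8, which matched 9 of the 10 genes, and cover the 250 bases 5′ of the start. *Six3* lies at chr6:14796257-14796506 (minus strand), *Six6* at chr6:97370185-97370434 (plus strand), *Rorb* at chr1:225970974-225971223 (minus strand) and *Nkx2-1* at chr6:79734868-79735117 (minus strand). Capitals mark the CCAAT box on either strand, CCAAT or ATTGG.
Six3: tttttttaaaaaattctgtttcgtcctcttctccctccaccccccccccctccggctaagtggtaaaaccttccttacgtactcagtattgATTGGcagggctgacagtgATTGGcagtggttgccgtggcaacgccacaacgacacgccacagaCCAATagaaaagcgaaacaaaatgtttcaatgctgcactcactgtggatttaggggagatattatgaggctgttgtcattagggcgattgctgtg
Six6: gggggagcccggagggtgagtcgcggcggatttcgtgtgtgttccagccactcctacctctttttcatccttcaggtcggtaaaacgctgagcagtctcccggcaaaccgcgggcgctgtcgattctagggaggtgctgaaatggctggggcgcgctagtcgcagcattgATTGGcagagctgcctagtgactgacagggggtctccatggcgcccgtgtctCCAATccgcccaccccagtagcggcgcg
Rorb: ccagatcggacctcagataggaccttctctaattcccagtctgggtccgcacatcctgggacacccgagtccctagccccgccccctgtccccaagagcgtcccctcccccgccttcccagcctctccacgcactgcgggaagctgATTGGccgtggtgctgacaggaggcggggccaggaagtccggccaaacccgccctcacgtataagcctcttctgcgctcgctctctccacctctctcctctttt
Nkx2-1: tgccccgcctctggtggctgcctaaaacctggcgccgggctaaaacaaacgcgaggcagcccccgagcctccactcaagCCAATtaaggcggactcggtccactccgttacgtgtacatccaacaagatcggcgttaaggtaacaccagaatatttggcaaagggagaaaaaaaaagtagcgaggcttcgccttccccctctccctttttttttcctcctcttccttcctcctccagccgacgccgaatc
The *Six3* window held 3 CCAAT boxes, the *Six6* window 2, and the *Rorb* and *Nkx2-1* windows 1 each. A CCAAT box was present in 7 of the 9 matched members and in 34.0% of all 33469 promoters. The longest run of letters common to the *Six3* and *Six6* windows was the 12 bases ATTGATTGGCAG, which begins 163 bases before the *Six3* start and 84 bases before the *Six6* start and contains a CCAAT box. It occurred on either strand in 5 promoters in all, 0.0149%. The run was picked because both windows hold it, so the share is a description. A GC box (GGGCGG) was present in the windows of *Lhx2*, *Six6*, *Otp* and *Rorb* and in 30.5% of all promoters. No member window held the homeodomain core TAATTA (4.86% of all promoters), the nuclear receptor half-site AGGTCA (14.1%), TATAAA (12.9%) or the palindromic estrogen response element (0.120%). Both strands were searched, and a match or its absence describes these 250 letters only.

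Tanycytes had the highest level of 5 of the 10 factors over all 10 gated classes when both libraries were added. *Lhx2*, a LIM homeodomain factor of the eye field and of tanycytes, stood at 270 CPM (95% interval 255 to 284) in tanycytes, followed by ependymal cells (40.4 CPM) and astrocytes (33.0 CPM), whose intervals overlapped, and then by oligodendrocyte precursors (12.5 CPM) and neurons (9.96 CPM), which also overlapped. *Nkx2-1*, which specifies the ventral hypothalamus, stood at 145 CPM (135 to 156) in tanycytes, then at 49.0 CPM in ependymal cells, 36.7 CPM in neurons and 11.4 CPM in astrocytes, with no overlap between neighbours. *Six3*, which sets the anterior forebrain and eye, followed the order tanycytes (77.7 CPM), ependymal cells (53.6 CPM) and neurons (29.9 CPM), with oligodendrocyte precursors (21.0 CPM) and astrocytes (19.9 CPM) not told apart. *Six6*, its relative in the ventral hypothalamus and retina, was arranged differently, with tanycytes (57.8 CPM) ahead of neurons (34.7 CPM), and ependymal cells (9.15 CPM) and astrocytes (4.78 CPM) far below. *Rax*, the retina and anterior neural fold homeobox factor that marks tanycytes, was sparse: of its UMIs 26 fell in tanycytes, 7 in astrocytes, 1 in ependymal cells and 0 in neurons. The rest lay in cells that the gate gave no class. The 26 UMIs in tanycytes were 61.9% of all *Rax* UMIs and 5.17 CPM (3.38 to 7.57).

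**Figure D1:**
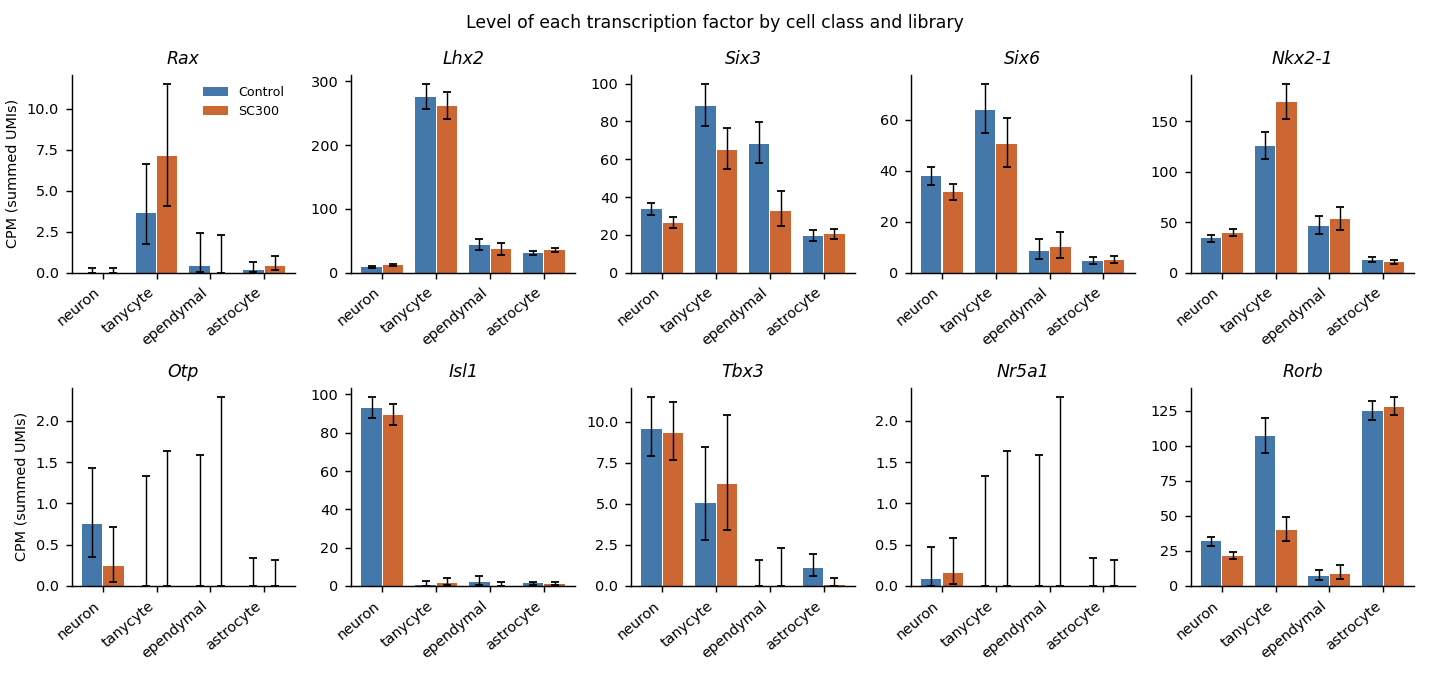
Level of each factor in CPM (vertical axis) in 4 cell classes of the Control (blue) and SC300 (orange) libraries, with bars for the summed UMIs and lines for exact 95% Poisson intervals. Each panel has its own axis from 0. *Lhx2* and *Nkx2-1* are highest in tanycytes in both libraries, *Isl1* stands out in neurons, and *Rorb* is as high in the astrocytes of both libraries while its tanycyte bars are at 107 and 39.8 CPM.

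*Rorb* had its highest level in astrocytes, where 2859 UMIs gave 126 CPM (122 to 131) and made up 68.3% of all *Rorb* UMIs. Tanycytes followed at 76.7 CPM, neurons at 26.6 CPM, and oligodendrocyte precursors (11.1 CPM) and ependymal cells (7.62 CPM) overlapped. *Isl1*, a LIM homeodomain factor of ventral neurons, was found mostly in neurons: 2214 UMIs at 91.1 CPM (87.4 to 95.0), which were 95.4% of all its UMIs, while the next class, microglia and macrophages, stood at 2.18 CPM. *Tbx3*, a T-box factor, was highest outside the 4 classes, in endothelial cells (34.4 CPM) and mural cells (22.1 CPM), whose intervals overlapped, and stood at 9.43 CPM in neurons and 5.57 CPM in tanycytes. *Otp* and *Nr5a1* were close to the limit of detection. All 12 UMIs of *Otp*, 9 in Control and 3 in SC300, fell in neurons in 12 separate cells, and *Nr5a1* had 1 UMI in Control and 2 UMIs in SC300, all in neurons.

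The background of free RNA was read in microglia and macrophages, which should lack these factors, at median depths of 6632 UMIs in Control and 7464 UMIs in SC300. There *Rorb* was detected in 1.11% and 0.548% of cells, *Nkx2-1* in 0.554% and 0.731%, *Six3* and *Lhx2* each in 0.185% and 0.548%, and *Isl1* in 1.11% and 0.731%. Oligodendrocytes, also planned as background, were deeper, at median UMIs of 19577 in Control and 20807 in SC300. *Lhx2* was detected in 2.36% and 1.96% of them, *Six3* in 2.13% and 3.91%, *Nkx2-1* in 0.473% and 1.57%, and *Isl1* in 0.709% and 0.391%. The shares in tanycytes were far above these. *Lhx2* was detected in 199 of 227 Control tanycytes (87.7%, 82.7 to 91.6) and in 119 of 137 SC300 tanycytes (86.9%, 80.03 to 92.0). *Rax* was detected in 10 Control tanycytes (4.41%) and 11 SC300 tanycytes (8.03%), against 0 of 542 Control and 0 of 547 SC300 microglia and macrophages. *Isl1*, with 1 Control tanycyte (0.441%) and 3 SC300 tanycytes (2.19%, 0.454 to 6.27), had an interval that overlapped the background.

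Among the factors with at least 50 UMIs in both libraries together, differences over 1.5-fold between the libraries were few. Of all 7704 genes counted in tanycytes 8.41% were over 1.5-fold lower in SC300 and 5.27% higher (13.7% in either direction), and of the 5 members counted there *Rorb* was lower and none was higher. The paper had already shown *Rorb* as lower in SC300 in these same libraries, in the cluster that held its *Kiss1* cells. It reported no change in its other clusters, and its clusters are not the classes gated here. The count in tanycytes is thus a description and no independent result. In ependymal cells 5.84% of genes were lower and 2.77% higher (8.61% in either direction), and of the 3 members counted *Six3* was lower. In neurons 2.97% of genes were lower and 2.85% higher (5.82% in either direction), and 0 of the 7 members counted passed this size. In astrocytes 2.65% were lower and 3.02% higher (5.66% in either direction), and 0 of the 5 members counted did. The median log2 ratio of the members counted was -0.06 in neurons, -0.34 in tanycytes, -0.23 in ependymal cells and 0.06 in astrocytes, beside -0.05, -0.04, -0.06 and -0.02 over all genes counted in the same classes.

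*Rorb* in tanycytes had 296 UMIs in Control, or 107 CPM (95.0 to 120), and 90 UMIs in SC300, or 39.8 CPM (32.0 to 48.9). The log2 ratio was -1.42 (-1.78 to -1.08). It was detected in 140 Control tanycytes (61.7%, 55.0 to 68.0) and 53 SC300 tanycytes (38.7%, 30.5 to 47.4). With every cell thinned to 2000 UMIs, which left out 5 Control cells and 0 SC300 cells, the expected shares were 18.0% and 7.50%. The level was spread over many cells, as the 3 cells with most *Rorb* held 6.76% of its UMIs in Control and 15.6% in SC300, and without them the log2 ratio was -1.44. The ratio stayed between -1.86 and -1.16 over all 14 alternatives of the gate, scaling and weighting.

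Astrocytes, in which *Rorb* was highest, gave no such difference. They held 1341 *Rorb* UMIs in Control, or 125 CPM (118 to 132), and 1518 UMIs in SC300, or 128 CPM (122 to 134), a log2 ratio of 0.03 (-0.07 to 0.14). The gene was detected in 56.8% (54.1 to 59.4) and 58.1% (55.5 to 60.6) of astrocytes. Neurons lay between the other classes, with 31.7 CPM (28.6 to 35.0) in Control against 21.6 CPM (19.1 to 24.4) in SC300, for a log2 ratio of -0.55 (-0.78 to -0.32). The intervals of the *Rorb* ratio in tanycytes, neurons and astrocytes do not overlap one another, but with 1 library per group the difference between classes was not tested.

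**Figure D2:**
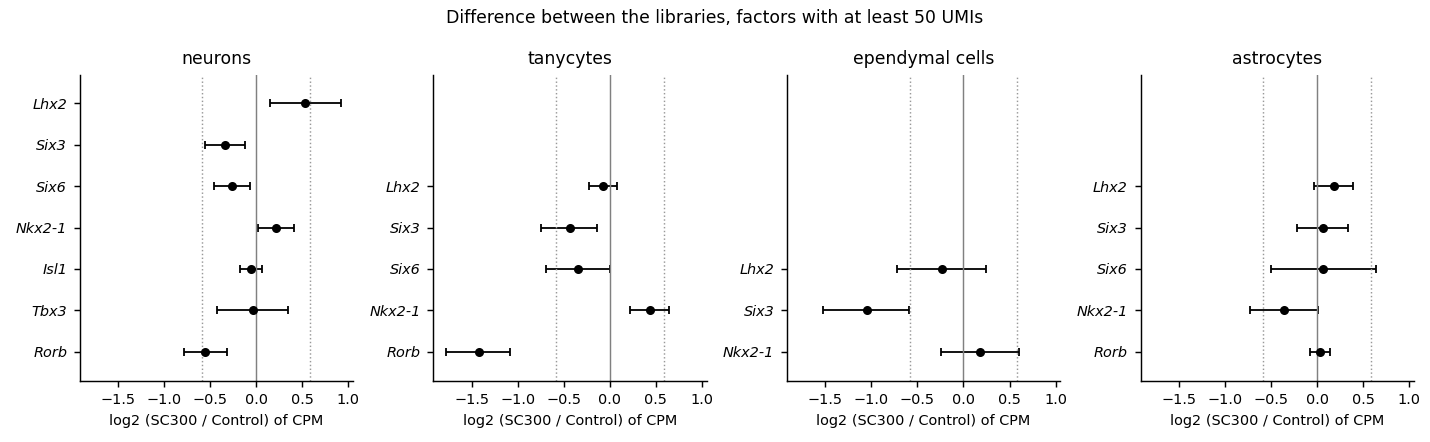
Log2 ratio of CPM, SC300 over Control (horizontal axis), for every factor with at least 50 UMIs in the class, with exact 95% intervals for counting error. Dotted lines mark 1.5-fold, which *Rorb* passes in tanycytes (-1.42) and *Six3* in ependymal cells (-1.05).

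The remaining tanycyte factors differed less. *Nkx2-1* was at 125 CPM (112 to 139) in Control against 169 CPM (152 to 187) in SC300, for a log2 ratio of 0.43 (0.22 to 0.65), and was detected in 68.3% and 80.3% of tanycytes, or 21.4% and 27.0% after thinning. Its direction was opposite to that of *Rorb*. Within a library *Nkx2-1* was detected in 74.3% of Control tanycytes with *Rorb* and 58.6% of those without, and in 86.8% and 76.2% in SC300. The tanycytes with *Rorb* were also deeper, at median UMIs of 11528 against 9159 in Control and 14378 against 10166 in SC300. *Six3* was at 88.1 CPM (77.4 to 99.8) in Control against 65.0 CPM (54.9 to 76.4) in SC300, for a log2 ratio of -0.44 (-0.74 to -0.14), and was detected in 53.3% and 51.8% of tanycytes, or 14.8% and 11.5% after thinning. *Lhx2* differed by less than the counting error, at 276 CPM (257 to 296) and 262 CPM (241 to 284), with an interval of the log2 ratio from -0.23 to 0.08. The 3 cells with most *Lhx2* held 7.98% of its UMIs in Control and 21.5% in SC300. Its ratio ran from -0.30 to 0.001 over 14 alternatives, so the lowest lay outside that interval. *Rax* had 10 UMIs (3.61 CPM, 1.73 to 6.64) in Control and 16 UMIs (7.08 CPM, 4.05 to 11.5) in SC300, and *Tbx3* had 14 UMIs in each, at 5.05 and 6.19 CPM, and a difference was not detectable at this depth for either. Over all cells, with those given no class, *Rax* had 20 UMIs in Control and 22 UMIs in SC300 (0.389 and 0.390 CPM). Its tanycyte values therefore also rest on which cells the gate kept.

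*Six6* in tanycytes depended on which tanycytes were taken. Over all of them it was at 63.9 CPM (54.8 to 74.0) in Control and 50.4 CPM (41.6 to 60.6) in SC300. Tanycytes were split at 30 UMIs of ciliary markers per 10000, a split made after the data were seen. Among the 129 Control and 67 SC300 tanycytes below it *Six6* was at 60.01 and 83.8 CPM, a log2 ratio of 0.48 (0.06 to 0.91). Among the 98 and 70 tanycytes at 30 to 60 per 10000 it was at 68.7 and 12.3 CPM, a log2 ratio of -2.48 (-3.45 to -1.63), and it was detected in 22 of the 98 Control cells (22.4%, 14.6 to 32.0) and 5 of the 70 SC300 cells (7.14%, 2.36 to 15.9). *Rorb* was lower in SC300 in both sets, with log2 ratios of -1.50 (-1.97 to -1.05) and -1.29 (-1.86 to -0.75). *Six3* had log2 ratios of -0.21 (-0.60 to 0.19) and -0.76 (-1.25 to -0.28), and these intervals overlap, so the 2 sets were not told apart for it. *Nkx2-1* was higher in both, at 0.58 (0.28 to 0.88) and 0.27 (-0.04 to 0.58), with the second interval including 0.

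A smaller set of tanycytes was taken by *Scn7a*, *Col25a1* and *Adm*. In the 27 tanycytes with *Scn7a*, *Col25a1* or *Adm*, known from tanycytes of the median eminence, *Six6* reached 167 CPM (125 to 218), against 50.5 CPM (44.3 to 57.3) in the 337 without, both libraries added. *Tbx3* was at 25.2 CPM (10.9 to 49.6) and 4.24 CPM (2.59 to 6.55) in the same sets, resting on 8 and 20 UMIs. *Lhx2* (214 and 273 CPM), *Nkx2-1* (157 and 144 CPM) and *Six3* (84.9 and 77.2 CPM) differed by less. Because *Scn7a*, *Col25a1* and *Adm* are among the gate's markers, these cells are a subset of the gate and not an independent sort. *Adm* (2.53 and 1.77 CPM in tanycytes) reached 48.2 and 48.1 CPM in another class and *Col25a1* (8.30 and 6.19 CPM) 8.46 and 8.33 CPM, and *Tbx3* was highest in endothelial and mural cells. Their part in the values of this set was not tested. Across the 364 tanycytes the genes whose detection was most like that of *Six6* were *Frzb* (phi coefficient 0.55, in 65 of the 77 *Six6* cells), *Gpr155* (0.50) and *Dlk1* (0.49). For *Six3* they were *Gpr155*, *Ccdc80* and *Prss23* (each 0.34), for *Rax* *Cacna1h* (0.31), *L1cam* (0.30) and *Tbk1* (0.30). For *Lhx2*, detected in 318 of the 364 cells, they were *Sec61g* (0.43), *Pfdn1* (0.35) and *Aamp* (0.34), and for *Nkx2-1* *Ndufc1* (0.33), *Sec11a* (0.33) and *Sap18* (0.32). Deeper cells detect more of every gene, so these coefficients are descriptions, and *Frzb* is a marker of the gate.

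**Figure D3:**
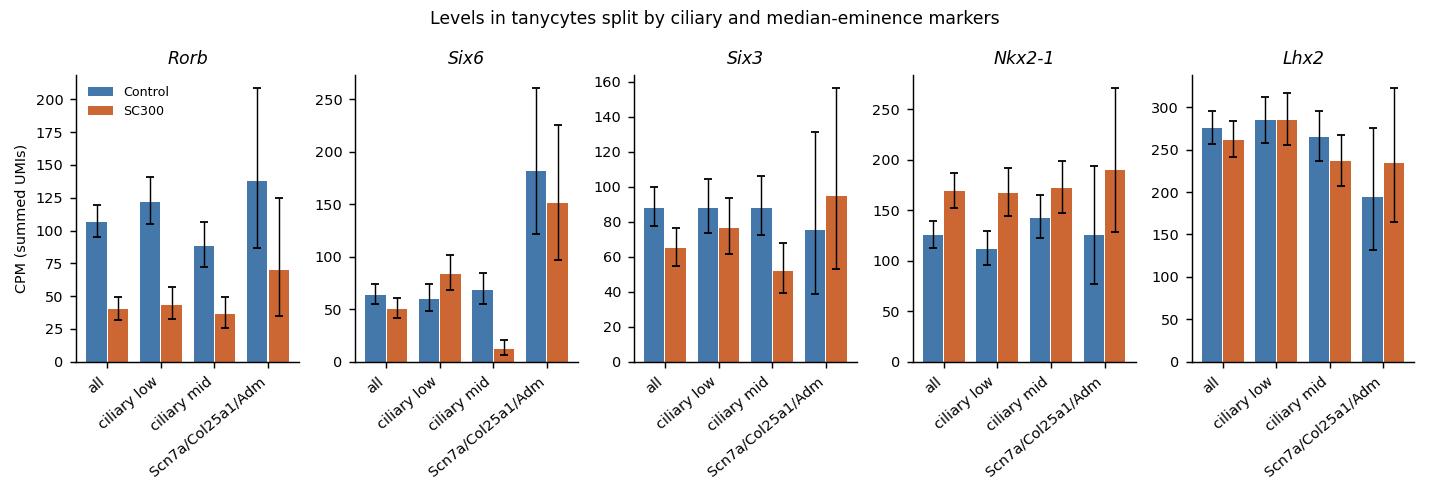
CPM of 5 factors (vertical axes, each from 0) in tanycytes of Control (blue) and SC300 (orange): all, those under 30 (ciliary low) or at 30 to 60 (ciliary mid) UMIs of ciliary markers per 10000, and those with *Scn7a*, *Col25a1* or *Adm*. Lines are exact 95% Poisson intervals. *Rorb* is lower in SC300 in both ciliary sets, whereas *Six6* is at 83.8 CPM against 60.01 CPM in the low set and 12.3 CPM against 68.7 CPM in the mid set.

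Summed levels of markers listed for other classes differed between the tanycytes of the libraries as well. Summed over the 10 mural markers the level was 545 CPM in Control and 1839 CPM in SC300, with 2 and 4 of the markers at 0. The 8 endothelial markers went the other way, at 83.4 and 22.6 CPM with 0 and 1 at 0. In mural cells these endothelial markers summed to 4590 and 4650 CPM. Whether the mural markers came from other cells or from the tanycytes themselves was not tested. The 10 neuron markers summed to 472 and 726 CPM with 0 and 1 at 0, the 9 ependymal markers to 2866 and 3078 CPM with 0 at 0 in both, and the 10 astrocyte markers to 1126 and 897 CPM with 0 at 0 in both. Their part in the values above was not tested. Without the 146 Control and 68 SC300 tanycytes that carried 3 or more markers of a second list, the log2 ratio was -1.86 for *Rorb*. The gate as first set put nearly all lining cells with the ependymal cells. For a tanycyte the second list can therefore be the tanycyte list itself, so the cells left are not a purer set of tanycytes.

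In ependymal cells *Six3* had 158 UMIs in Control, or 68.0 CPM (57.8 to 79.5), and 53 UMIs in SC300, or 32.9 CPM (24.6 to 43.0), a log2 ratio of -1.05 (-1.53 to -0.59). It was detected in 39 of 68 Control cells (57.4%, 44.8 to 69.3) and 21 of 62 SC300 cells (33.9%, 22.3 to 47.0), at median depths of 26556 and 14659 UMIs, and after thinning the expected shares were 11.7% and 5.85%. The 3 cells with most *Six3* held 27.2% and 50.9% of its UMIs. The log2 ratio was -0.54 with every cell weighted alike, and -0.22 without the 21 Control and 33 SC300 cells that carried 3 or more markers of another list. The 10 oligodendrocyte markers summed to 48.2 CPM in Control and 242 CPM in SC300 ependymal cells, with 1 and 0 at 0, and their part in this result was not tested. *Lhx2* was at 43.0 CPM (35.0 to 52.4) and 36.6 CPM (27.8 to 47.2), and *Nkx2-1* at 46.5 CPM (38.1 to 56.1) and 52.7 CPM (42.1 to 65.2), with overlapping intervals for both. *Six6* (20 and 16 UMIs) and *Rorb* (16 and 14 UMIs) were below the minimum, and *Tbx3*, *Otp* and *Nr5a1* had 0 UMIs.

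Over all neurons *Isl1* was the same in both libraries within counting error: 1109 UMIs or 92.9 CPM (87.5 to 98.6) in Control and 1105 UMIs or 89.4 CPM (84.2 to 94.8) in SC300, a log2 ratio of -0.06 (-0.18 to 0.07). It was detected in 203 Control neurons (41.7%) and 205 SC300 neurons (41.8%). *Tbx3* was likewise at 9.55 CPM (7.88 to 11.5) and 9.31 CPM (7.68 to 11.2). *Six3* was at 33.5 CPM (30.3 to 37.0) in Control against 26.5 CPM (23.7 to 29.5) in SC300, for a log2 ratio of -0.34 (-0.56 to -0.13), and *Six6* at 37.9 CPM (34.5 to 41.5) and 31.6 CPM (28.5 to 34.9), a log2 ratio of -0.26 (-0.46 to -0.06). *Nkx2-1* was at 33.9 CPM (30.7 to 37.4) and 39.3 CPM (35.9 to 43.0), a log2 ratio of 0.21 (0.02 to 0.41), and *Lhx2* at 8.13 CPM (6.59 to 9.91) and 11.7 CPM (9.90 to 13.8), a log2 ratio of 0.53 (0.15 to 0.92). The directions of *Six3*, *Six6*, *Nkx2-1*, *Lhx2* and *Rorb* in neurons held under each of the 8 alternatives run. None passed 1.5-fold as counted, but *Lhx2* did with every cell weighted alike (0.69) and *Rorb* did without the 3 cells with most *Rorb* (-0.61). *Rax* had 0 UMIs in all 977 neurons, which allows up to 0.616% of Control neurons and 0.612% of SC300 neurons with a UMI at a limit of 3 counts. The upper Clopper-Pearson bounds were 0.755% and 0.750%.

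The neuronal factors divided by transmitter. Of the neurons, 468 had *Slc32a1*, the vesicular GABA transporter, without *Slc17a6*, and 303 had *Slc17a6*, the vesicular glutamate transporter, without *Slc32a1*, at median depths of 25447 and 26531 UMIs. *Six6* was at 64.0 CPM (59.5 to 68.7) in the GABAergic set and 4.69 CPM (3.39 to 6.32) in the glutamatergic set, *Six3* at 49.2 CPM (45.3 to 53.3) and 8.72 CPM (6.92 to 10.9), and *Isl1* at 130 CPM (123 to 136) and 35.7 CPM (31.9 to 39.7). *Nkx2-1* had the opposite order, with 24.7 CPM (22.0 to 27.7) and 58.8 CPM (53.9 to 63.9). *Lhx2*, at 9.65 CPM (7.97 to 11.6) and 11.8 CPM (9.66 to 14.2), was not told apart between them. All 3 *Nr5a1* UMIs fell in glutamatergic neurons.

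Between the libraries, GABAergic neurons had *Rorb* at 41.9 CPM in Control against 27.2 CPM in SC300, for a log2 ratio of -0.63 (-0.92 to -0.33), and glutamatergic neurons 21.1 and 16.7 CPM, a log2 ratio of -0.34 (-0.79 to 0.11). *Nkx2-1* was at 20.6 and 29.1 CPM in GABAergic neurons, a log2 ratio of 0.49 (0.16 to 0.84), and at 58.9 and 58.7 CPM in glutamatergic neurons, a log2 ratio of -0.01 (-0.26 to 0.24). *Six3* was at 53.3 and 44.7 CPM in GABAergic neurons, and at 8.55 and 8.87 CPM in glutamatergic neurons.

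Peptide genes drew a finer map, with cells called by at least 5 UMIs and 10 UMIs per 10000 of the peptide gene, both libraries added. Of 43 neurons with high *Agrp*, the orexigenic peptide of the ARC, *Isl1* was detected in 37, *Six6* in 23 and *Tbx3* in 22, and *Nkx2-1* in 5. Of 14 neurons with high *Pomc*, the melanocortin precursor, *Isl1* was detected in 13, *Tbx3* in 12 and *Nkx2-1* in 12. *Nkx2-1* thus stood at 7.43 CPM (3.21 to 14.6) in the first and 95.8 CPM (69.6 to 129) in the second. The 106 neurons with high *Sst*, somatostatin, had *Isl1* in 76, *Six3* in 58 and *Six6* in 52, and *Rorb* in 12. Between the libraries the *Isl1* log2 ratio was -0.38 (-0.64 to -0.13) with high *Sst* and 0.50 (0.01 to 0.99) with high *Agrp*. Over the peptide sets with at least 20 *Isl1* UMIs it ran from -0.56 (-1.02 to -0.11) with high *Tac1*, a tachykinin precursor, to 0.87 (0.14 to 1.58) with high *Trh*, thyrotropin-releasing hormone. With high *Gal*, galanin, it was -0.04 (-0.39 to 0.31). The 27 neurons with high *Ghrh*, growth hormone-releasing hormone, had *Isl1* in 20 and *Rorb* in 14, with 0 UMIs of *Six3*, *Tbx3* and *Lhx2*. In the 10 neurons with high *Kiss1*, the gene of kisspeptin, *Nkx2-1* was detected in 6, *Tbx3* in 4 and *Rorb* in 3, which is too few cells for a comparison between the libraries.

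The 35 neurons with high *Avp*, vasopressin, had 0 UMIs of *Isl1* and the highest *Rorb* and *Six6* of the sets plotted, at 106 CPM (86.2 to 129) and 94.2 CPM (75.6 to 116), with *Six3* at 54.6 CPM (40.7 to 71.8). The 19 neurons with high *Oxt*, oxytocin, had 0 UMIs of *Six3* and *Six6*, *Rorb* at 2.36 CPM (0.486 to 6.89), and *Lhx2* at 31.4 CPM (22.4 to 42.8), detected in 11 cells. *Rorb* in the *Avp* set was at 155 CPM (121 to 196) in 22 Control neurons and 29 UMIs in 13 SC300 neurons (40.2 to 86.2 CPM), a log2 ratio of -1.37 (-2.05 to -0.73). This was the lowest *Rorb* ratio among the peptide sets with at least 20 *Rorb* UMIs. The others ran from -0.75 (-1.31 to -0.21) with high *Gal*, galanin, to 0.68 (-0.77 to 2.01) with high *Trh*, thyrotropin-releasing hormone. *Six6* in the *Avp* set was at 95.4 and 93.1 CPM. Median depth differed between the *Avp* and *Oxt* sets, at 19915 and 89918 UMIs.

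**Figure D4:**
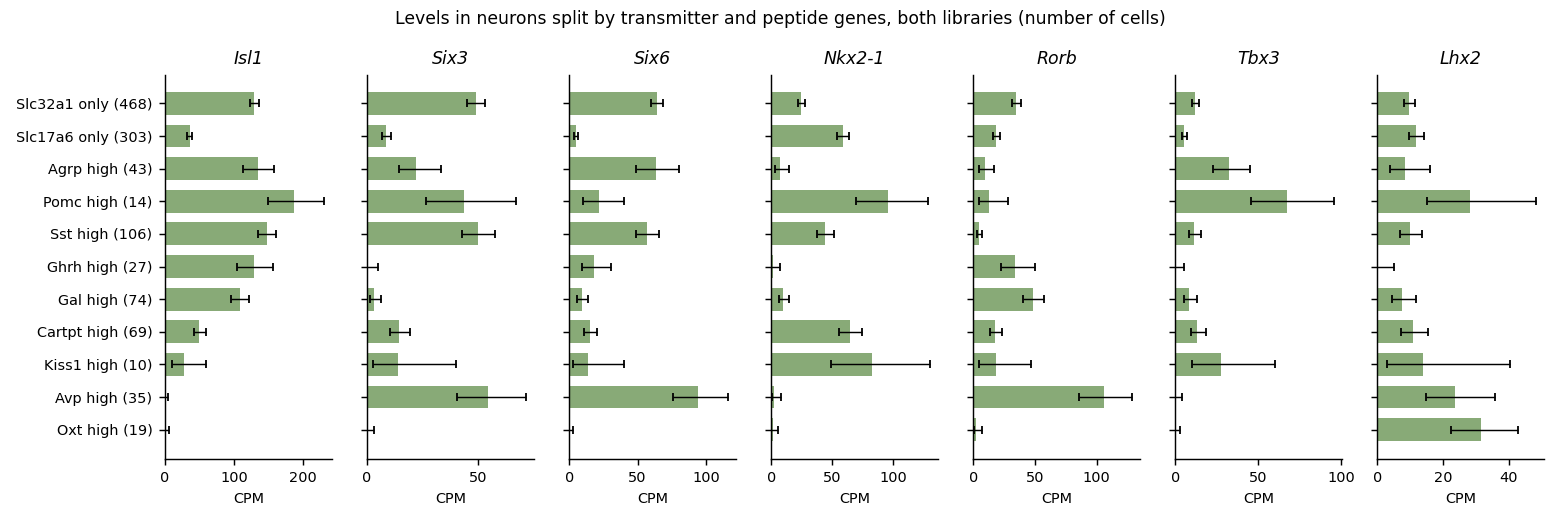
CPM of 7 factors (horizontal axes, each from 0) in neurons of both libraries, split by *Slc32a1* and *Slc17a6* or chosen by a high level of a peptide gene, with the number of cells in brackets and exact 95% Poisson intervals as lines. *Six3* and *Six6* are higher in the *Slc32a1* set and *Nkx2-1* in the *Slc17a6* set, and the *Avp* set has *Rorb* at 106 CPM and no *Isl1*.

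Some factors were met in the same neurons. *Six3* was detected in 69.2% (59.5 to 77.7) of the 107 Control neurons with *Six6* and in 17.4% (13.7 to 21.6) of those without, and in 66.3% (55.5 to 76.0) and 11.5% (8.52 to 15.0) in SC300. *Isl1* was detected in 86.4% (75.0 to 94.0) of the 59 Control neurons with *Tbx3* and 91.1% (80.4 to 97.0) of the 56 in SC300, against 35.5% of the neurons without in each library. Cells with a UMI of a factor were deeper, so these shares were not compared at equal depth. Median UMIs with and without *Tbx3* were 33418 and 20556 in Control neurons and 28591 and 18444 in SC300 neurons. With and without *Six6* they were 26786 and 20560 in Control neurons and 29683 and 16269 in SC300 neurons. The same pair recurred in tanycytes, where *Six3* was detected in 78.8% (65.3 to 88.9) of the 52 Control cells with *Six6* and 45.7% (38.2 to 53.4) of those without, and in 76.0% (54.9 to 90.6) and 46.4% (37.0 to 56.1) in SC300. It was also seen in astrocytes, with *Six3* in 13 (29.9% to 70.1%) of the 26 Control cells with *Six6* and 12.4% of those without. The genes most like *Isl1* across the 977 neurons were *Gad1* (phi 0.44), the GABA-synthesizing enzyme, *Ecel1* (0.39) and *Cited1* (0.36), and those most like *Tbx3* were *Rom1* (0.37), *Isl1* (0.35) and *Fndc3c1* (0.35). For *Rorb* across the 2810 astrocytes they were *Pnisr* (0.35) and the unnamed genes AABR07000534.1 (0.35) and AABR07034098.1 (0.34).

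**Figure D5:**
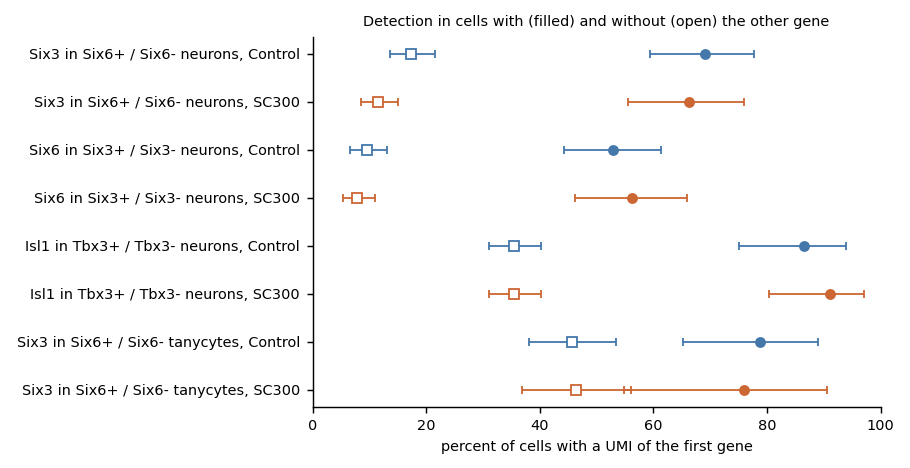
Percent of cells with a UMI of 1 factor (horizontal axis) among cells with (filled circles) and without (open squares) a UMI of another, in Control (blue) and SC300 (orange), with exact Clopper-Pearson 95% intervals. In neurons of both libraries the filled and open intervals for *Six3* and *Six6* and for *Tbx3* and *Isl1* do not overlap.

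In astrocytes the intervals of the log2 ratio of *Lhx2*, *Six3*, *Six6* and *Nkx2-1* all include 0. *Lhx2* was at 30.8 CPM (27.6 to 34.4) in Control and 35.0 CPM (31.7 to 38.5) in SC300, *Six3* at 19.5 CPM (16.9 to 22.3) and 20.3 CPM (17.8 to 23.0), and *Six6* at 4.66 and 4.89 CPM on 50 and 58 UMIs. *Nkx2-1* was at 12.9 CPM (10.8 to 15.2) and 10.0 CPM (8.31 to 12.0), a log2 ratio of -0.36 (-0.73 to 0.01). *Tbx3* had 12 UMIs in 7 Control astrocytes and 1 UMI in SC300.

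Other transcription factors of the hypothalamus were read from a list of 55 genes, of which 52 were found. In neurons 29 had at least 50 UMIs, and 7 were over 1.5-fold lower and 2 higher in SC300, beside 2.97% and 2.85% of all genes. These 9 came to 5 without the 3 cells with most UMIs of the gene and to 4 at a minimum of 100 UMIs, settings at which the share of all genes was not computed. The lowest ratios were those of *Onecut2*, a cut homeodomain factor (40 and 12 UMIs, log2 -1.79, -2.85 to -0.83), *Vax1*, a ventral forebrain homeodomain factor (46 and 22 UMIs, -1.11, -1.92 to -0.35), and *Lhx1*, a LIM homeodomain factor of the suprachiasmatic nucleus (112 and 59 UMIs, -0.97, -1.46 to -0.51). *Fezf2*, a zinc finger factor, was higher (45 and 106 UMIs, 1.19, 0.67 to 1.72), and so was *Meis2* (16 and 52 UMIs, 1.65, 0.82 to 2.56), but 3 cells held 100% and 88.5% of the *Meis2* UMIs. In tanycytes 10 of the list were counted and 2 were lower, beside 8.41% of all genes. These were *Pou3f2*, a POU factor (43.7 and 24.3 CPM, -0.84, -1.33 to -0.37), and *Hes1*, an effector of Notch signalling (394 and 246 CPM, -0.68, -0.83 to -0.53). In ependymal cells 0 of 11 passed 1.5-fold, beside 8.61% of all genes. In astrocytes *Hes5*, *Nkx2-2* and *Prox1* were higher, at log2 ratios of 0.74, 0.70 and 0.65, with intervals that include 0.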

How the data were processed

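Single-cell 3′ RNA libraries of pooled hypothalamic tissue from Control and SC300 rats, 1 per group, were used. Reads were processed by the authors (Cell Ranger 3.0.1 per the submitters' processing notes), who deposited raw UMI counts per gene and barcode. The depth was 52004789 UMIs in Control and 57013099 UMIs in SC300.

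Barcodes with at least 200 detected genes were kept. A cell was given a class where at least 3 of the class's 10 markers stood at 1 UMI per 10000 or more, and more markers of that class than of any other did. Of 100 markers 95 were found. As first set, this gate put 320 Control and 217 SC300 cells with the ependymal cells and 4 and 1 with the tanycytes. After the data were seen, these lining cells were therefore split: ependymal cells had 60 or more UMIs of ciliary markers per 10000, and tanycytes had fewer and *Crym* at 1 or more per 10000. The remaining 29 and 19 lining cells were not assigned. A further 329 Control and 295 SC300 cells met the rule of no class, and UMIs in all these cells count toward no class. In the lining, 13 and 10 cells lay at 50 to 60 and 5 and 10 at 60 to 70 per 10000. No doublet caller was run. As an alternative, cells of mixed markers, with 3 or more markers of a second list, were left out. For tanycytes that second list can be the tanycyte list itself.

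UMIs were summed per gene, class and library and scaled to CPM. No test, *P*-value or standard error was derived. A floor of 3 UMIs stood in for 0 in ratios, and no ratio was given where both libraries had 3 UMIs or fewer. Differences were counted past 1.5-fold among genes with at least 50 UMIs in both libraries together. Thinned shares are the expected shares over all draws of 2000 UMIs per cell. The genes named are all 10 members, the 3 genes with the highest phi coefficient of detection in the member's leading class of the 4 (genes in at least 10 cells, members in at least 20), and up to 3 listed factors per class and direction. Some genes that this rule or the marker lists take in are not reported here. The members and lists were chosen with earlier results of these data known. The ratio was run on simulated Poisson counts with the gene levels of tanycytes. Its interval rests on the same assumption, so this run does not cover counts clumped in a few cells. Scripts ran under Python 3.11.15 with scipy 1.17.1, pandas 2.3.3, numpy 2.4.6 and matplotlib 3.10.9. Alternatives covered the gate, mitochondrial share, scaling, weight of cells, the 3 leading cells, the minimum count and the split of the lining cells.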

Additional observations from a re-analysis of the deposited data

Results flagged for a closer look

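*Lhx2* in oligodendrocyte precursors, a class outside the 4 compared, was higher in SC300: 25 UMIs or 9.17 CPM (5.94 to 13.5) in Control and 45 UMIs or 15.6 CPM (11.4 to 20.9) in SC300, a log2 ratio of 0.77 (0.03 to 1.53). It was detected in 21 of 388 and 35 of 382 cells, or 5.41% and 9.16%. The difference was not tested, as each group has 1 library.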

How the results depend on the processing

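Of 160 recomputed log2 ratios of members under the alternatives planned, 149 stayed within the interval of the reported value, and of 36 under splits of the lining cells chosen after seeing the data, 33 did. Of 200 recomputed shares of cells 63 left their interval: all 40 thinned shares, 20 without cells above 20% mitochondrial UMIs, 2 without cells of mixed markers and 1 at 5 markers. The ratio of *Rorb* in tanycytes stayed past 1.5-fold (-1.86 to -1.16). That of *Six3* in ependymal cells kept its sign but was no longer past 1.5-fold with every cell weighted alike (-0.54) or without cells of mixed markers (-0.22). That of *Six6* in tanycytes ran from -2.48 to 0.48 and that of *Lhx2* in ependymal cells from -0.27 to 0.49. The count of members past 1.5-fold was 2 in place of 1 in tanycytes without cells of mixed markers (*Rorb*, *Six6*), at a minimum of 20 UMIs (*Rorb*, *Rax*) and with lining cells not split (*Rorb*, *Six3*), and 3 in tanycytes at 30 to 60 ciliary UMIs per 10000 (*Rorb*, *Six3*, *Six6*). In ependymal cells it was 0 without cells of mixed markers and 2 without cells above 20% mitochondrial UMIs. In neurons it was 1 in place of 0 with every cell weighted alike (*Lhx2*) and without the 3 leading cells (*Rorb*), and in astrocytes 1 with every cell weighted alike (*Nkx2-1*). The count of listed factors was 5 without the 3 leading cells and 4 at 100 UMIs in place of 9 in neurons. In tanycytes it was 1 without cells of mixed markers or with lining cells not split, 4 without the leading cells, 7 at 20 UMIs and 6 under 30 ciliary UMIs, in place of 2. In ependymal cells it was 2 without cells above 20% mitochondrial UMIs or with every cell weighted alike, 1 without the leading cells and 6 at 20 UMIs, in place of 0. In astrocytes it was 2 with every cell weighted alike and 0 at 100 UMIs, in place of 4. The share of all genes past 1.5-fold was computed at the main setting only, so these counts have no such share beside them. A lower minimum also counts more genes. The causes were not tested.

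A single random draw to 2000 UMIs, made first, gave 17.6% and 14.6% of tanycytes with *Rorb* in Control and SC300, and the expected share over all draws replaced it. No paired analysis was possible because each group has 1 library and no test was made. Classes hold several kinds of cell, and a different mix of them in the dissected tissue and a different level per cell cannot be told apart. *Rax*, *Otp* and *Nr5a1* had few UMIs, and the reason was not tested.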
